A study of Homo sapiens with 42 samples.

Results

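H1299 cells 4 h after 2 Gy of γ-radiation were compared with H1299 cells at 0 h, gene by gene, over 3 arrays at 4 h and 6 arrays at 0 h, which are 9 of the 42 arrays of the series. The arrays were chosen by their titles, which give the line, the hour and the replicate, and 18404 genes were measured on each. The series follows H1299 and H460, both human non-small cell lung carcinoma lines, at 2, 4, 8, 12 and 24 h after that dose, with 3 arrays for each line and hour and 6 arrays for each line at 0 h. The cells of both lines were dividing when irradiated and carry no other allele or agent in the labels. The arrays of a group are called biological replicates, and each line is a single established line grown in culture.

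The labels give no unirradiated array later than 0 h. The protocol mentions control cells kept for the same hours, and the labels do not say whether such cells are among the 0 h arrays. Time since irradiation and time in culture therefore cannot be told apart in any change given here. The values are log2 intensities that came without detection calls, so a low level cannot be told from background. A change is the 4 h mean minus the 0 h mean on the log2 scale, so that 1 is a doubling, and ± gives its standard error from the fit unless SD is named. A gene was called changed when its Benjamini-Hochberg adjusted p from limma over all 18404 genes was under 0.05. A bulk array reads the average over all cells: fewer cells in a state and less RNA per cell cannot be told apart.

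Ionizing radiation breaks both strands of DNA. The kinases ATM and ATR sense breaks and stalled forks, repair proceeds by end joining or by homologous recombination, and checkpoints hold the cell before replication or mitosis. The same kinases stabilise the transcription factor p53, which switches on CDKN1A (the cell cycle inhibitor p21), MDM2 and other genes.

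The width of the arrays differed little between H1299 at 4 h and at 0 h except for a single array. The interquartile range of the genes' levels was 3.63 to 3.70 over the arrays at 4 h and 3.24 to 3.69 at 0 h, and the lowest value belonged to 0 h replicate 2. The range averaged 3.66 at 4 h and 3.58 at 0 h in H1299. Further from that 4 h mean than the 0 h mean were 3.53 at 2 h and 3.81 at 8 h in H1299, and 3.34 at 0 h and 3.345 at 4 h in H460. Where leaving out 0 h replicate 2 moved a list's count at 4 h against 0 h by over 1.5 times, the count without that array stands beside it. The line's markers were those of a cell with simple-epithelial keratins and vimentin: KRT8 averaged 10.68 ± 0.07 at 4 h and 10.81 ± 0.09 at 0 h, and VIM 11.93 ± 0.03 at 4 h and 11.94 ± 0.11 at 0 h (SD, n = 3 and 6), among levels that ran from 1.45 to 14.22 in the whole table. The epithelial surface genes CDH1 and EPCAM were low, at 3.62 ± 0.12 and 3.58 ± 0.23 at 4 h and 3.71 ± 0.20 and 3.67 ± 0.15 at 0 h (SD, n = 3 and 6). Of 11 fibroblast, 11 leukocyte and 8 endothelial markers 0 were called in either direction. Of 19 epithelial markers 0 rose and 1 fell, and of 16 mesenchymal markers 1 rose and 1 fell, with 3 falls without 0 h replicate 2.

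At 4 h, 2919 genes (15.9% of those tested) were called, of which 1846 (10.0%) were higher and 1073 (5.83%) lower than at 0 h. The changes were small. Of the called genes, 1307 of the higher ones changed by less than 0.5 and 977 of the lower ones by less than that, while 20 genes (0.109%) were higher and 4 (0.0217%) lower by at least 2-fold. Among the 20, some rose by less than 2-fold without 0 h replicate 2, as given below. The median change over all genes was -0.03. In 1703 of the called higher genes (9.25% of those tested) all 3 arrays at 4 h lay above all 6 at 0 h, and in 859 of the called lower genes (4.67%) all lay below. The count of falls was the less stable. It was 1457 (7.92%) without 0 h replicate 2, where 1788 genes (9.72%) were higher, and 580, 641 and 573 without each array at 4 h in turn, where the rises numbered 1269, 1351 and 1421. All calls together numbered 1849 without 4 h replicate 1.

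The 15 rises and 15 falls named first were the largest among called genes whose arrays at 4 h did not overlap those at 0 h, so their separation is part of the choice and a description only. The rises were in genes of unlike function. ZBTB41, a gene for a BTB zinc finger protein, had levels of 8.21, 8.41 and 8.25 at 4 h, against a lowest of 6.42, a median of 6.76 and a highest of 6.95 at 0 h, a change of 1.56 ± 0.13 (adjusted p = 2.49e-08). BLID, a gene for a BH3-like cell death inducer, had 6.78, 5.76 and 5.9999 at 4 h, against a lowest of 4.32, a median of 4.54 and a highest of 5.36 at 0 h, a change of 1.53 ± 0.19 (adjusted p = 4.45e-06). Both groups stood apart in both genes, with a gap wider than the spread within the 0 h arrays for ZBTB41. ARRDC3, an arrestin-domain adaptor that acts on receptor trafficking, had 9.77, 9.75 and 9.63 at 4 h, against a lowest of 8.21, a median of 8.41 and a highest of 8.53 at 0 h, a change of 1.31 ± 0.07 (adjusted p = 3.28e-12). SPRY4, a Sprouty inhibitor of receptor tyrosine kinase signalling, had 9.36, 9.38 and 9.35 at 4 h, against a lowest of 7.91, a median of 8.06 and a highest of 8.25 at 0 h, a change of 1.29 ± 0.07 (adjusted p = 2.54e-12). The 3 values at 4 h of ARRDC3 and of SPRY4 lay close together and above every value at 0 h.

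Genes of chromosome maintenance and of the centriole followed. FANCM, the translocase that anchors the Fanconi anaemia core complex at stalled forks, had 7.02, 7.13 and 7.06 at 4 h, against a lowest of 5.53, a median of 6.01 and a highest of 6.23 at 0 h, a change of 1.10 ± 0.12. SASS6, the protein of the centriole's cartwheel, had 7.96, 8.15 and 7.84 at 4 h, against a lowest of 6.12, a median of 7.01 and a highest of 7.25 at 0 h, a change of 1.10 ± 0.16. TEX15, known for its role in germ cell recombination and silencing, rose by 1.16 ± 0.14, and N4BP2, a gene for a protein with a nicking endonuclease domain, by 1.09 ± 0.14. WASHC1, a subunit of the WASH complex that drives actin assembly on endosomes, rose by 1.22 ± 0.12. That gene lies in a family of near-identical copies, so its row may read several of them. SLC5A3, the myo-inositol transporter, rose by 1.08 ± 0.13, the bitter taste receptor gene TAS2R31 by 1.12 ± 0.20, the axonemal dynein gene DNAH8 by 1.05 ± 0.15 and the zinc finger gene ZNF780A by 1.04 ± 0.12. The small nucleolar RNA genes SNORA29 and SNORD14E, which lie in introns of host genes, rose by 1.10 ± 0.19 and 1.10 ± 0.21. Among these 15 genes the adjusted p was highest for SNORD14E, at 0.0005. Without 0 h replicate 2 the change was under 1 for TAS2R31 (0.995), SNORA29 (0.99), SLC5A3 (0.95) and SASS6 (0.95). It was also under 1 for ZNF780A (0.94), DNAH8 (0.92) and SNORD14E (0.90), while the other named rises stayed above 1.

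**Figure D1:**
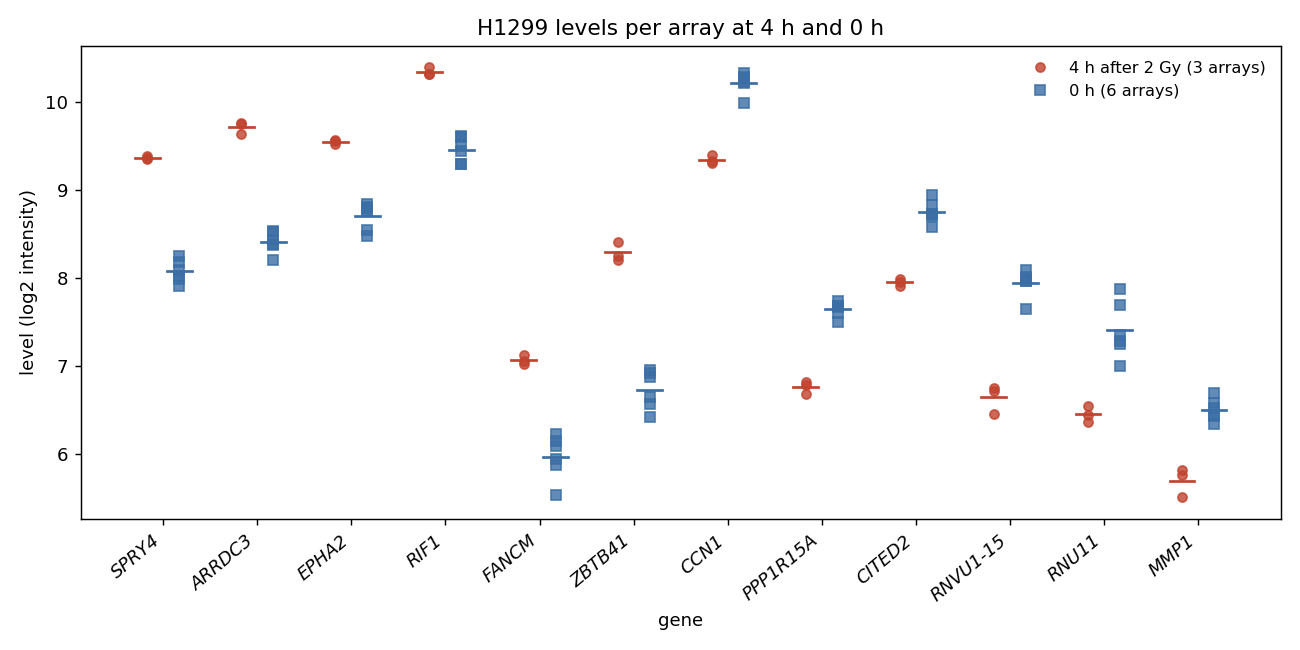
Log2 intensity of 12 genes on each array of H1299 (y axis), with the 3 arrays at 4 h as red circles left of the 6 arrays at 0 h as blue squares for each gene, and short lines at the group means. The 6 genes on the left are higher at 4 h and the 6 on the right are lower, and within each gene the arrays of the groups do not overlap.

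Genes that act downstream of receptor tyrosine kinases and MAP kinase included several with clear rises. Sprouty proteins and dual-specificity phosphatases are switched on by ERK signalling and damp it. Of 25 such feedback genes measured, 10 were called higher and 2 lower, with a median change of 0.09 against -0.03 for all genes. Each list count at 4 h against 0 h is to be read beside the 10.0% higher and 5.83% lower of all genes. DUSP6, the phosphatase that inactivates ERK in the cytoplasm, had levels of 9.11, 9.12 and 9.03 at 4 h, against a lowest of 8.11, a median of 8.23 and a highest of 8.40 at 0 h, a change of 0.86 ± 0.06 (adjusted p = 1.67e-09). EPHA2, an ephrin receptor tyrosine kinase, had 9.56, 9.52 and 9.56 at 4 h, against a lowest of 8.47, a median of 8.77 and a highest of 8.84 at 0 h, a change of 0.85 ± 0.08 (adjusted p = 1.10e-07). The groups did not overlap in either gene, and the 3 arrays at 4 h of EPHA2 spanned less than those at 0 h. PHLDA1, a pleckstrin-homology-like protein induced by growth factors, rose by 0.55 ± 0.06, and DUSP5, the nuclear ERK phosphatase, by 0.45 ± 0.06.

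The immediate-early genes, which mitogens and stress switch on without new protein, were split. Of 34 measured, 8 were called higher and 9 lower, with a median of -0.12. IER2, a nuclear immediate-early protein, had 9.51, 9.53 and 9.39 at 4 h, against a lowest of 8.76, a median of 8.98 and a highest of 9.10 at 0 h, a change of 0.51 ± 0.06 (adjusted p = 4.82e-06). ZFP36 and ZFP36L1, which bind AU-rich elements and speed the decay of mRNAs, rose by 0.83 ± 0.11 and 0.52 ± 0.07. CCN1, a secreted matricellular protein of the CCN family, fell: its levels were 9.31, 9.40 and 9.33 at 4 h, against a lowest of 9.99, a median of 10.25 and a highest of 10.33 at 0 h, a change of -0.88 ± 0.07 (adjusted p = 6.63e-09). Its 3 arrays at 4 h lay below the lowest at 0 h, which was 0 h replicate 2. In the same direction, PPP1R15A, the GADD34 subunit that directs dephosphorylation of the translation factor eIF2α, had 6.81, 6.78 and 6.68 at 4 h, against a lowest of 7.50, a median of 7.68 and a highest of 7.74 at 0 h, a change of -0.89 ± 0.08 (adjusted p = 4.37e-08).

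The start regions of SPRY4, EPHA2, IER2 and PPP1R15A are printed because these genes share growth factor and stress signalling as a textbook theme and moved in opposite directions. Each window runs from 250 bases before to 50 bases after the gene's start, 300 bases in all, 5′ to 3′ on the strand of the gene, taken from RefSeq on GRCh38.p14. The motifs searched on both strands were the cyclic AMP response element TGACGTCA, the ETS core CCGGAA and the TATA box TATAAA, none of which contains another. They were chosen after the values were seen. Capitals mark the matches, and the windows lie at chr5:142324198-142324497 (minus strand), chr1:16156020-16156319 (minus strand), chr19:13150161-13150460 (plus strand) and chr19:48872171-48872470 (plus strand).
SPRY4: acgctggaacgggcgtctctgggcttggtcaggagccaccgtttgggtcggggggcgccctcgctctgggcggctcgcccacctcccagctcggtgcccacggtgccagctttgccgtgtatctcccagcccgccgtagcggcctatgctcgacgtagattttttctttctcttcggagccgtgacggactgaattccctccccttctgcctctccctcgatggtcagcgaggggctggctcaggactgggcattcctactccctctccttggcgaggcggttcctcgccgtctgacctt
EPHA2: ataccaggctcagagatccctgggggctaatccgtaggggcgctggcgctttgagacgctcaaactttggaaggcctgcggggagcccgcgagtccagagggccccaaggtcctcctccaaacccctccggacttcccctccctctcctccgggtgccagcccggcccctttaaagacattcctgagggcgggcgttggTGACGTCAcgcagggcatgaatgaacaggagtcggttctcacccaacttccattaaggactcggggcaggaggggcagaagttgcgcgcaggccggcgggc
IER2: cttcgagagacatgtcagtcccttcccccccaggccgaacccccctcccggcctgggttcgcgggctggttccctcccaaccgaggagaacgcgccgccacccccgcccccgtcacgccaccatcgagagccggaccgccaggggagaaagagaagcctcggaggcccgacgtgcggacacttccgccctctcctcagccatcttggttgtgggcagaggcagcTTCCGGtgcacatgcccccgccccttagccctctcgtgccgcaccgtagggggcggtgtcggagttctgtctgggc
PPP1R15A: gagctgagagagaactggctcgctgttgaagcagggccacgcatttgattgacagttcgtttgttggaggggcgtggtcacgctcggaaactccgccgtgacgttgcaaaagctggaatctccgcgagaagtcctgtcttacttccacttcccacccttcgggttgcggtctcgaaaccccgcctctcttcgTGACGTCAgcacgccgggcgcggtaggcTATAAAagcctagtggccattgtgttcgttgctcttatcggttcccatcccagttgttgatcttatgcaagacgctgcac

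TGACGTCA stood 51 to 44 bases before the start of EPHA2, which rose, and 58 to 51 bases before that of PPP1R15A, which fell, with the PPP1R15A window also holding TATAAA 30 to 25 bases before the start. IER2 held 1 ETS core on its opposite strand, 26 to 21 bases before the start, and the window of SPRY4 held none of these letters. Of 14230 genes tested that had such a window, TGACGTCA was in 2.65% of all windows, in 3.51% of those of the 1540 genes called higher and in 4.26% of those of the 869 called lower. The ETS core was in 23.2% of all, in 34.2% of the higher and in 29.9% of the lower genes, and the TATA box in 9.01%, 4.94% and 8.06%. A match is a description of the letters and not a site.

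Genes of DNA repair were more often higher than lower. Of 37 genes of double-strand break repair, 20 were called higher and 3 lower, with a median of 0.28 against -0.03 for all genes, and without 0 h replicate 2 the number lower was 1. RIF1, which 53BP1 recruits to breaks to hold back resection, had 10.39, 10.32 and 10.32 at 4 h, against a lowest of 9.29, a median of 9.48 and a highest of 9.61 at 0 h, a change of 0.89 ± 0.08 (adjusted p = 6.40e-08). All 3 arrays at 4 h lay above those at 0 h. BRIP1, the helicase that partners BRCA1, rose by 0.79 ± 0.08, GEN1, a resolvase of Holliday junctions, by 0.78 ± 0.09, POLQ, the polymerase of microhomology-mediated joining, by 0.50 ± 0.08, and RAD50, of the complex that first binds broken ends, by 0.46 ± 0.08.

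Fanconi and crosslink repair, which removes lesions that tie the strands together, had 10 of 18 genes called higher and 2 lower, with a median of 0.26. Beside FANCM they were led by REV3L and REV1, of translesion synthesis, at 0.66 ± 0.09 and 0.45 ± 0.08, FANCB of the core complex at 0.69 ± 0.13 and FANCI, which is ubiquitinated with FANCD2, at 0.43 ± 0.07. The damage checkpoint list was more mixed, with 7 of 26 higher, 5 lower and a median of 0.04. ATM itself had 8.40, 8.23 and 8.16 at 4 h, against a lowest of 6.92, a median of 7.47 and a highest of 7.64 at 0 h, a change of 0.85 ± 0.11 (adjusted p = 1.20e-05). Its groups did not overlap. ATR rose by 0.64 ± 0.09, TOPBP1, which activates ATR, by 0.41 ± 0.08, and WEE1, the kinase that holds CDK1 inactive, by 0.64 ± 0.14. The call of WEE1 was lost when all table rows of the gene were averaged, with a change of 0.27 and adjusted p = 0.0875. H2AX, the histone variant phosphorylated around breaks, fell by 0.39 on the log2 scale (adjusted p = 0.000307).

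The centrosome and centriole list had 25 of 46 genes called higher and 0 lower, with a median of 0.25. PCM1, the scaffold of centriolar satellites, had 9.38, 9.28 and 9.24 at 4 h, against a lowest of 8.49, a median of 8.66 and a highest of 8.88 at 0 h, a change of 0.62 ± 0.07. CEP290, of the ciliary transition zone, rose by 0.92 ± 0.13, CCP110, which caps centrioles, by 0.71 ± 0.10 and CEP350 by 0.60 ± 0.09. Nuclear pore genes named NUP had 9 of 22 higher and 1 lower, with a median of 0.25, and 3 lower without 0 h replicate 2. NUP153, of the nuclear basket, rose by 0.41 ± 0.07 and NUP188, of the inner ring, by 0.33 ± 0.06, while NUP37 of the outer ring fell by 0.36 on the log2 scale.

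Of 464 zinc finger genes named ZNF, many of which encode KRAB repressors of transposons, 167 were called higher and 7 lower. Their median change was 0.20. ZNF234 had 8.73, 8.57 and 8.61 at 4 h, against a lowest of 7.66, a median of 7.74 and a highest of 7.88 at 0 h, a change of 0.87 ± 0.08. ZNF292, a growth hormone transcription regulator known as a tumour suppressor, had 9.05, 8.98 and 8.95 at 4 h, against a lowest of 7.91, a median of 8.12 and a highest of 8.48 at 0 h, a change of 0.84 ± 0.09. In both genes the 3 arrays at 4 h lay above the 6 at 0 h. ZNF225 and ZNF616 rose by 0.71 ± 0.09 and 0.77 ± 0.10. Many of these genes lie in clusters of similar copies, and their rows may share probes.

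**Figure D2:**
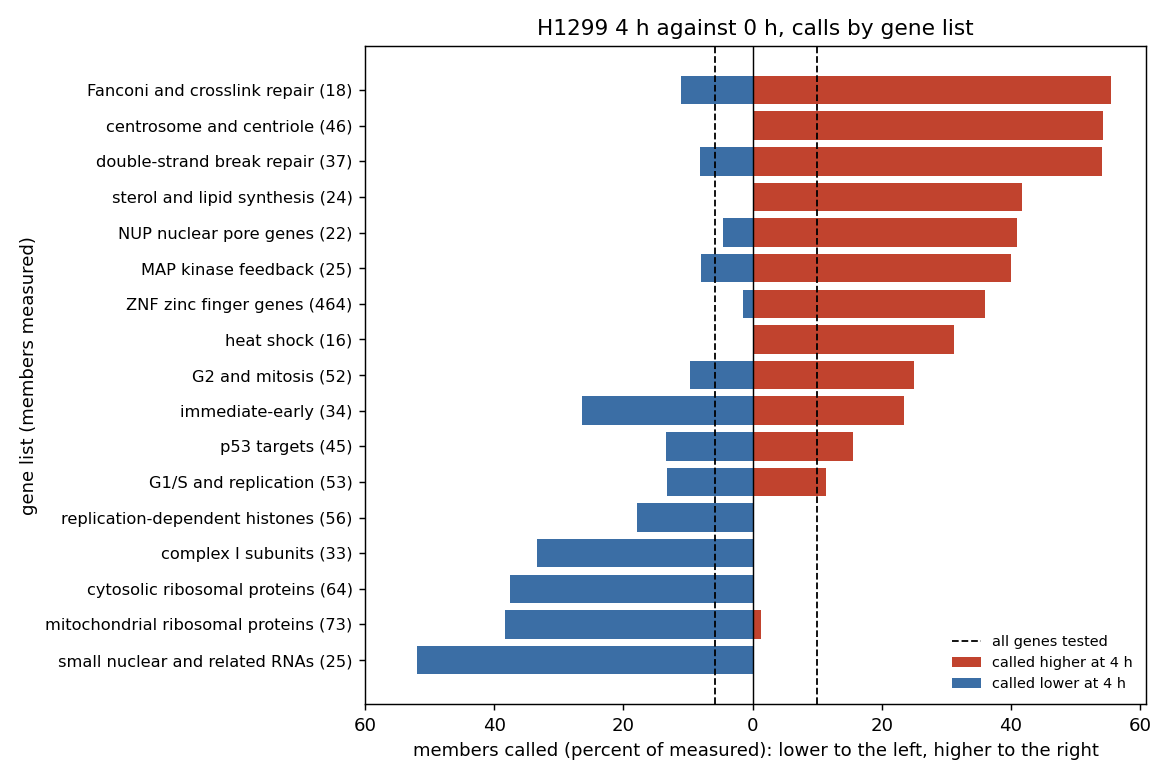
Share of measured members (x axis, percent) called higher at 4 h (red, right of 0) or lower (blue, left of 0) against 0 h in H1299, for a chosen part of the 43 gene lists, with the number measured in brackets. Lists not shown include some near the shares of all genes, such as the interferon-stimulated genes. The dashed lines mark the 10.0% and 5.83% of all genes: the repair, centrosome, nuclear pore and ZNF lists extend to the right of it, and the small nuclear RNA, ribosomal protein and complex I lists to the left.

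Genes called higher had longer spans than genes called lower. The span from start to end of the gene in RefSeq (GRCh38.p14), introns included, had a median of 62.1 kb over the 1773 protein-coding genes called higher, 16.6 kb over the 1015 called lower and 27.3 kb over all 16897. When the protein-coding genes were split by span into 4 bins of equal size, 2.34% of the shortest bin (up to 9.98 kb) were called higher and 8.43% lower. In the second bin 6.79% were higher and 6.79% lower, in the third 13.97% and 5.26%, and in the longest (from 71.1 kb) 18.9% were higher and 3.55% lower. The share called higher grew from bin to bin and the share called lower shrank. Without 0 h replicate 2 the shares higher were 2.60%, 6.56%, 13.3% and 18.1%, and those lower 11.3%, 9.64%, 6.94% and 4.50%. The span is a description, and its overlap with the repair, centrosome and ZNF lists was not tested. The trend was not particular to 4 h. In H1299 at 2 h against 0 h the bins had 1.87%, 3.835%, 8.45% and 10.06% called higher. Called lower there were 13.6%, 10.5%, 6.30% and 2.70%, beside 5.88% higher and 7.93% lower of all genes. At 8 h, where 24.6% of all genes were called, 4.33%, 11.3%, 21.05% and 26.7% were higher and 14.7%, 11.1%, 7.53% and 5.185% lower. In H460 at 4 h the same bins had 1.63%, 1.35%, 1.47% and 0.639% called higher, where 1.37% of all genes were, and 2.46%, 1.37%, 1.14% and 1.09% called lower, where 1.55% of all genes were.

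**Figure D3:**
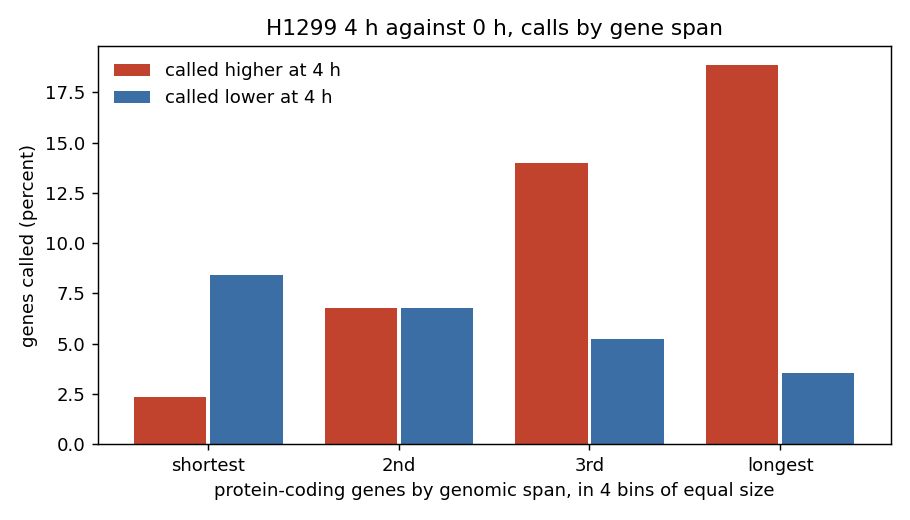
Percent of protein-coding genes called higher (red) or lower (blue) at 4 h against 0 h in H1299 (y axis), for 4 equal bins of the genes ordered by genomic span (x axis). The red bars grow from 2.34% to 18.9% and the blue bars shrink from 8.43% to 3.55% toward the longest bin.

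Targets of p53 were split in H1299. Of 45 measured, 7 were called higher and 6 lower, with a median of -0.01. CDKN1A had levels of 7.13, 7.08 and 7.02 at 4 h, against a lowest of 6.75, a median of 6.87 and a highest of 6.99 at 0 h. All 3 arrays at 4 h lay above those at 0 h, but the change of 0.20 ± 0.07 missed the threshold (adjusted p = 0.0506), and it passed without 0 h replicate 2 or 0 h replicate 5 (adjusted p = 0.0204 and 0.0441). With other single arrays left out the adjusted p was as high as 0.213, and with a block for the replicate number in the fit it was 0.239. MDM2, the ubiquitin ligase of p53, had 9.51, 9.41 and 9.39 at 4 h, against a lowest of 9.03, a median of 9.13 and a highest of 9.32 at 0 h, a change of 0.29 ± 0.06 (adjusted p = 0.00092), with no overlap. RRM2B, a ribonucleotide reductase subunit, rose by 0.75 ± 0.13 and ASCC3, a helicase of alkylation repair, by 0.45 ± 0.09. PLK2, a polo-like kinase, fell by 0.68, TRIAP1, a small mitochondrial lipid-transfer protein, by 0.53 and GADD45A, a stress sensor, by 0.39 on the log2 scale.

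The falls named were led by small nuclear RNAs, the RNA parts of the spliceosome. Of 25 genes in a list of spliceosomal small nuclear RNAs, with the RNAs of RNase P, RNase MRP and vaults added, 13 were called lower and 0 higher, with a median of -0.52. RNVU1-15, a variant U1 RNA, had 6.76, 6.46 and 6.71 at 4 h, against a lowest of 7.64, a median of 7.98 and a highest of 8.09 at 0 h, a change of -1.30 ± 0.12 (adjusted p = 1.66e-07). RNU4ATAC, the U4atac RNA of the minor spliceosome that removes rare introns, had 5.79, 5.91 and 6.03 at 4 h, against a lowest of 6.30, a median of 7.03 and a highest of 7.67 at 0 h, a change of -1.12 ± 0.20 (adjusted p = 0.000302). RNU11, the U11 RNA that recognises the 5′ splice site of those introns, had 6.37, 6.55 and 6.44 at 4 h, against a lowest of 6.997, a median of 7.32 and a highest of 7.87 at 0 h, a change of -0.95 ± 0.14 (adjusted p = 2.62e-05). In each of these genes the arrays at 4 h lay below all those at 0 h.

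Other variant U1 genes fell with them: RNVU1-3 had a change of -1.04 ± 0.15, RNVU1-6 of -1.01 ± 0.13, RNVU1-4 of -0.86 ± 0.13 and RNVU1-19 of -0.80 ± 0.14. The variant U1 genes are near-identical copies, so a row may read several of them and the members are not independent. These RNAs lack poly(A) tails, and how well the assay reads them was not tested. The protein genes of the minor spliceosome had 0 of 13 called higher, 2 lower and a median of 0.10. Genes for SR proteins and the CLK kinases that phosphorylate them had 8 of 31 higher and 3 lower, with a median of 0.08. CLK4 rose by 0.94 ± 0.11, CLK1 by 0.56 ± 0.09, and the SR-related genes LUC7L3 and PNISR by 0.59 ± 0.08 and 0.52 ± 0.07.

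Small nucleolar RNAs, which guide the modification of ribosomal RNA, were called higher less often and lower more often than all genes. Of 176 genes 8 were called higher (4.5%) and 19 lower (10.8%), beside 10.0% and 5.83% of all genes, with a median of -0.11. Without 0 h replicate 2 the count was 8 higher and 35 lower. SNORD13 fell by 0.73, SNORD46 by 0.68 and SNORA28 by 0.81 on the log2 scale, and SNORD52 rose by 0.92 ± 0.15. Of 16 small Cajal body RNAs 0 were higher and 1 lower, and without 0 h replicate 2 these counts were 1 and 9. Of 189 microRNA genes, 11 were higher and 3 lower, below the shares of all genes.

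Genes of ribosomal proteins and of respiratory complex I had more calls lower than higher, with most members not called. Of 64 cytosolic ribosomal protein genes 24 were called lower and 0 higher, with a median of -0.21, and 33 were lower without 0 h replicate 2. RPS14 had 11.19, 11.31 and 11.26 at 4 h, against a lowest of 11.60, a median of 11.68 and a highest of 11.85 at 0 h, a change of -0.43 ± 0.06 (adjusted p = 3.60e-05), and RPL24 had a change of -0.45 ± 0.08. All 3 arrays at 4 h of RPS14 lay below those at 0 h. Of 73 mitochondrial ribosomal protein genes 28 were lower and 1 higher, with a median of -0.20, and 39 were lower without that array. MRPL36 had 9.24, 9.26 and 9.03 at 4 h, against a lowest of 9.59, a median of 9.63 and a highest of 9.81 at 0 h, a change of -0.48 ± 0.07 (adjusted p = 1.92e-05), and MRPL21 had a change of -0.52 ± 0.09. Again the groups did not overlap. Of 33 subunits of complex I, which passes electrons from NADH to ubiquinone, 11 were lower (15 without that array) and 0 higher, with a median of -0.24, and NDUFB6 and NDUFB9 had changes of -0.60 ± 0.11 and -0.38 ± 0.07. With a block for the replicate number in the fit, 10 cytosolic and 23 mitochondrial ribosomal protein genes and 9 complex I subunits were lower. Over all genes 636 were lower in that fit, against 1073 without the block. Ribosomal protein genes have many processed copies that can share probes.

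Replication-dependent histone genes, which are transcribed in S phase, had 0 of 56 called higher and 10 lower, with a median of -0.20. Without 0 h replicate 2 the number lower was 23, and with a block for the replicate number in the fit it was 5. H1-3, a linker histone gene, had 6.43, 6.30 and 6.35 at 4 h, against a lowest of 6.84, a median of 6.88 and a highest of 7.06 at 0 h, a change of -0.56 ± 0.09 (adjusted p = 5.09e-05), and its groups did not overlap. H4C14 and H2AC21 fell by 0.69 and 0.52 on the log2 scale. H2AC14, among the 15 top falls at -0.88 ± 0.27, lost its call when any of 5 arrays was left out, with adjusted p up to 0.11. Histone genes lie in clusters of near-identical copies. Of 36 proteasome subunit genes 4 were lower and 0 higher, and 8 and 0 without 0 h replicate 2. PSMA7 of the core particle fell by 0.50.

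Among single genes that fell, MMP1, the interstitial collagenase, had 5.76, 5.82 and 5.51 at 4 h, against a lowest of 6.34, a median of 6.49 and a highest of 6.69 at 0 h, a change of -0.81 ± 0.11 (adjusted p = 2.38e-05). CITED2, which competes with hypoxia-inducible factor for the coactivators CBP and p300, had 7.91, 7.99 and 7.96 at 4 h, against a lowest of 8.58, a median of 8.73 and a highest of 8.94 at 0 h, a change of -0.80 ± 0.07 (adjusted p = 4.83e-08). In both genes all 3 arrays at 4 h lay below the 6 at 0 h. UBALD2, a gene for a UBA-like domain protein, fell by 0.85 and CCDC167, for a coiled-coil protein, by 0.82 on the log2 scale.

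Cell cycle lists had calls in both directions at 4 h. Of 52 genes of G2 and mitosis, 13 were called higher and 5 lower, with a median of 0.04, and without 0 h replicate 2 the counts were 12 and 10. TOP2A, the topoisomerase that untangles chromosomes, had 10.44, 10.39 and 10.42 at 4 h, against a lowest of 9.80, a median of 9.93 and a highest of 10.06 at 0 h, a change of 0.49 ± 0.06 (adjusted p = 6.18e-06). The groups did not overlap. The mitotic kinesins KIF20B, KIF18A and KIF11 rose by 0.84 ± 0.16, 0.53 ± 0.09 and 0.50 ± 0.09, and CENPF of the kinetochore by 0.53 ± 0.09. Of 53 genes of G1/S and replication, 6 were higher (11.3%) and 7 lower (13.2%), with a median of -0.03, and 5 and 11 without 0 h replicate 2. The share higher was near the 10.0% of all genes, and the median near that of all genes. GINS2, of the replicative helicase, fell by 0.54 and CCNE1, cyclin E1, by 0.36 on the log2 scale, while the polymerase genes POLA1 and POLE rose by 0.46 ± 0.07 and 0.36 ± 0.08.

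Sterol and lipid synthesis had 10 of 24 genes higher and 0 lower, with a median of 0.14, and 1 lower without 0 h replicate 2. STARD4, a cholesterol carrier, had 8.52, 8.50 and 8.49 at 4 h, against a lowest of 7.50, a median of 7.73 and a highest of 8.05 at 0 h, a change of 0.74 ± 0.09 (adjusted p = 5.05e-06), without overlap. SCD, which desaturates fatty acids, LSS, lanosterol synthase, and INSIG1, which retains the sterol sensor in the endoplasmic reticulum, rose by 0.55 ± 0.08, 0.47 ± 0.08 and 0.46 ± 0.06. Of 16 heat shock genes 5 rose and 0 fell, with a median of 0.14, led by the chaperones HSPA4L at 0.55 ± 0.06 and HSPH1 at 0.40 ± 0.06, and DNAJB1 had a change of 0.43 ± 0.09.

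Signalling lists had calls in both directions. Of 25 targets of TGF-β and BMP 5 were higher and 3 lower, and 6 were lower without 0 h replicate 2. SKIL, a SMAD corepressor, had 8.35, 8.31 and 8.32 at 4 h, against a lowest of 6.85, a median of 7.36 and a highest of 7.60 at 0 h, a change of 0.99 ± 0.12 (adjusted p = 2.71e-06). TGFB2, a TGF-β ligand, rose by 0.64 ± 0.11 and HES1, a repressor downstream of Notch, by 0.56 ± 0.09, while ID2, an inhibitor of bHLH factors, fell by 0.60 and CCN2, connective tissue growth factor, by 0.27 on the log2 scale. Of 28 NF-κB targets 6 were higher and 2 lower. LIF, a cytokine of the interleukin-6 family, had 4.73, 4.92 and 4.93 at 4 h, against a lowest of 3.90, a median of 4.005 and a highest of 4.21 at 0 h, a change of 0.83 ± 0.10 (adjusted p = 5.15e-06). The groups did not overlap in SKIL or in LIF. BIRC2, TNFAIP3 and NFKB2 rose by 0.40 ± 0.08, 0.42 ± 0.09 and 0.29 ± 0.06. Of 43 interferon-stimulated genes 6 were higher (13.95%) and 1 lower (2 without that array), near the 10.0% and 5.83% of all genes. Among those higher were SAMD9 at 0.77 ± 0.14, DTX3L at 0.60 ± 0.12 and PARP14 at 0.53 ± 0.09.

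Stress and metabolic lists had calls in both directions, each of 2 to 6 genes, beside 10.0% higher and 5.83% lower over all genes. ATF4 targets had 2 of 34 higher and 4 lower (11.8%), with ATF4, the factor of the integrated stress response, lower by 0.44 and ATF3 by 0.48 on the log2 scale and the cystine transporter SLC7A11 higher by 0.54 ± 0.12. Genes of endoplasmic reticulum stress had 2 of 23 higher and 5 lower (21.7%), with SEL1L, of protein degradation there, at 0.48 ± 0.08 and XBP1 at -0.29 ± 0.06. NRF2 targets had 4 of 28 higher (14.3%) and 2 lower, with 4 lower without 0 h replicate 2. The BCL2 family and caspases had 4 of 35 higher and 4 lower (11.4% each), autophagy and lysosome genes 4 of 35 higher and 6 lower (17.1%), and hypoxia and glycolysis genes 2 of 30 higher and 3 lower. The survival gene MCL1 rose by 0.50 ± 0.08 and APAF1, of the apoptosome, by 0.41 ± 0.07, ADM, adrenomedullin, fell by 0.63 and BNIP3, a mitophagy receptor, by 0.51 on the log2 scale. Of 20 circadian genes 3 were higher and 3 lower (15% each): PER3 and CLOCK rose by 0.69 ± 0.10 and 0.67 ± 0.13, and BMAL1, the partner of CLOCK, fell by 0.51.

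Ribosome biogenesis genes had 9 of 39 higher and 6 lower (10 without 0 h replicate 2), led by POLR1B, a subunit of RNA polymerase I, at 0.80 ± 0.13. Cytosolic tRNA synthetases had 2 of 16 higher (12.5%) and 1 lower (6.25%), near the 10.0% and 5.83% of all genes. Olfactory receptor genes, known for their use in the nose, had 1 of 337 higher (4 without that array) and 1 lower. The bitter taste receptors had 6 of 24 higher and 0 lower, with a median of 0.14, among them TAS2R4 at 0.77 ± 0.19, whose call was lost without 4 h replicate 1 (adjusted p = 0.0598).

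The 4 h arrays were next set against the hours on either side. Against 2 h, 1463 genes (7.95%) were called at 4 h, 1075 higher (5.84%) and 388 lower (2.11%), and both comparisons share the 4 h arrays. All calls together numbered 617 to 738 with any 1 array at 4 h left out and 710 without 2 h replicate 3. EPHA2 was 1.14 ± 0.09 higher at 4 h than at 2 h (adjusted p = 4.59e-08), TAS2R31 1.004 ± 0.23, POLR1B 0.91 ± 0.15, RCBTB1, a gene for a BTB protein with RCC1 repeats, 0.90 ± 0.14 and ITPRIPL2 0.90 ± 0.11. Their changes from 0 h, which share the 0 h arrays, were 0.85 at 4 h and -0.30 at 2 h for EPHA2, and 0.47 at 4 h and -0.43 at 2 h for ITPRIPL2, so both genes stood above 0 h at 4 h and below it at 2 h.

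Among the genes lower at 4 h than at 2 h, TIPARP, an ADP-ribosyltransferase that dioxin induces, was -0.89 ± 0.07 at 4 h relative to 2 h (adjusted p = 6.04e-08), with changes from 0 h of -0.20 at 4 h and 0.69 at 2 h. IFIT2, an interferon-induced antiviral protein, was -0.86 ± 0.15 relative to 2 h, LGALS16, a galectin gene known from placenta, -1.36 ± 0.27, the pregnancy glycoprotein gene PSG4 -1.20 ± 0.27 and ANXA3, an annexin, -0.85 ± 0.14. Of these genes, IFIT2, LGALS16 and PSG4 were not called at 4 h against 0 h, with changes of -0.31, 0.33 and -0.33. Their changes at 2 h against 0 h were 0.54, 1.69 and 0.88. By list, the 9 NUP genes called higher at 4 h against 0 h compare with 0 of 22 higher at 2 h against 0 h, where 5.88% of all genes were higher and 7.93% lower. Sterol genes had 10 higher and 0 lower at 4 h, and 3 higher and 6 lower at 2 h. The feedback genes of MAP kinase had 10 higher and 2 lower at 4 h, and 4 higher and 8 lower at 2 h. Other lists had much of their 4 h pattern at 2 h and kept it at 8 h, where 24.6% of all genes were called. At 2, 4 and 8 h against 0 h the small nuclear RNA list had 13, 13 and 12 lower. The mitochondrial ribosomal list had 23, 28 and 25 lower and complex I 12, 11 and 11. The centrosome list had 21, 25 and 35 higher and double-strand break repair 12, 20 and 19.

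Against 4 h, 52 genes were called at 8 h (0.283%), 46 higher (0.250%) and 6 lower (0.0326%), while 1659 had an unadjusted p under 0.05. The count of 52 was 5 to 8 when any single array of either hour was left out, so it rests on each of these 6 arrays. TROAP, a protein of the mitotic spindle, was 0.66 ± 0.09 at 8 h relative to 4 h (adjusted p = 0.000584), BORA, which activates the mitotic kinase Aurora A, 0.63 ± 0.11 and UBALD2 0.65 ± 0.12, and CCNE2, cyclin E2, was -0.75 ± 0.13. ZDHHC14, a palmitoyltransferase, was 0.75 ± 0.14 and ZNF165 0.67 ± 0.15. Lower at 8 h than at 4 h were also the antisense gene ELOVL2-AS1 at -0.77 ± 0.16, TBXT, the brachyury factor, at -0.72 ± 0.15, the angiopoietin-like gene ANGPTL7 at -0.60 ± 0.12 and the neurexophilin gene NXPH2 at -0.48 ± 0.10. Against 0 h, 36 of 52 genes of G2 and mitosis were higher and 0 lower at 8 h, where 24.6% of all genes were called in either direction, beside 13 and 5 at 4 h.

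The time courses of single genes, all set against the same 0 h arrays, had unlike shapes. At 2, 4, 8, 12 and 24 h the changes of SPRY4 were 0.45, 1.29, 1.45, 1.58 and 1.43, and those of DUSP6 0.31, 0.86, 1.01, 1.10 and 1.36. Both stayed high to 24 h. FANCM had 0.44, 1.10, 1.03, 1.12 and 0.44 and TAS2R31 0.12, 1.12, 1.40, 1.31 and -0.15, with the highest values in the middle hours. MMP1 had -0.09, -0.81, -0.87, -1.01 and -0.05, low from 4 to 12 h and near its 0 h level at 2 and 24 h. RNVU1-15 had -1.19, -1.30, -1.29, -1.19 and -1.51 and CCN1 -0.84, -0.88, -0.98, -0.97 and -0.79, low at every hour from 2 h on. UBALD2 had -0.31, -0.85, -0.19, -0.31 and -0.09, lowest at 4 h.

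**Figure D4:**
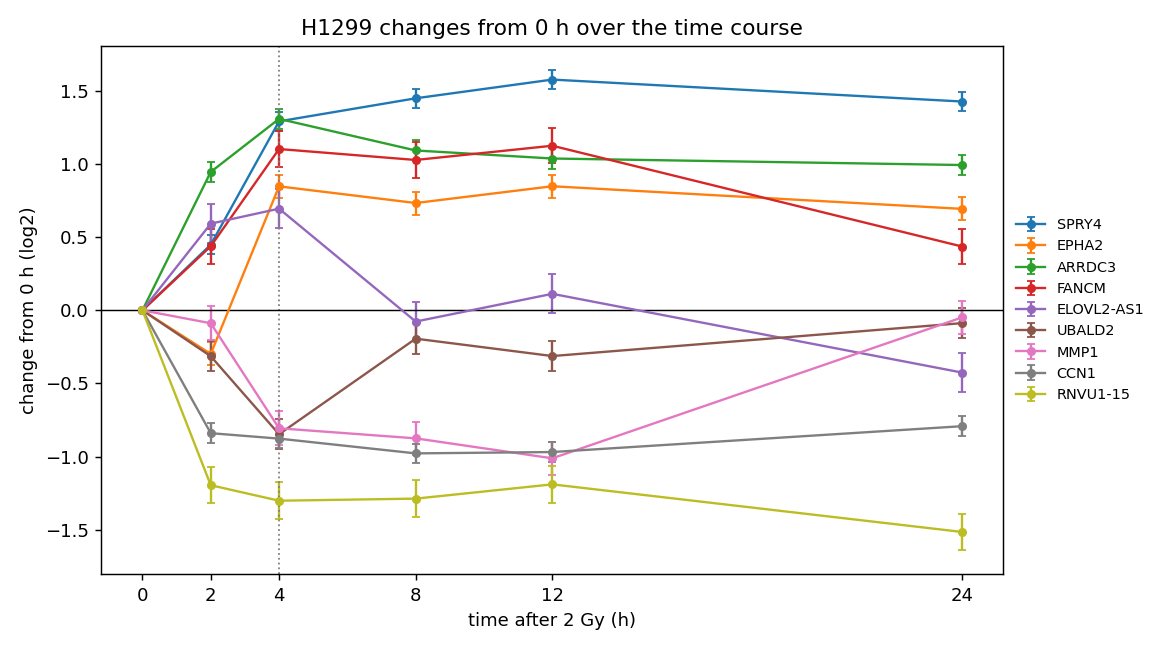
Change from 0 h (y axis, log2, with the standard error of the fit) of 9 genes in H1299 against hours after 2 Gy (x axis), with 0 h set to 0 and a dotted line at 4 h. SPRY4, EPHA2, ARRDC3 and FANCM are above 0 at 4 h, UBALD2, MMP1, CCN1 and RNVU1-15 below it, and UBALD2 is lowest at 4 h.

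H460 at the same hour and dose gave the last comparison, with 3 arrays at 4 h and 6 at 0 h of its own. The H1299 change minus the H460 change was called above 0 for 981 genes (5.33%) and below 0 for 591 (3.21%), and the total of 1572 (8.54%) was 931 without H460 4 h replicate 2 and 964 to 1043 without any single H1299 array at 4 h. In H460 the change itself was called for 2.92% of all genes, higher for 1.37% and lower for 1.55%. Targets of p53 were among the differences below 0: 24 of 45 were called below and 0 above, and in H460 27 were higher and 0 lower, with a median of 0.52 in H460. CDKN1A changed by 0.20 ± 0.07 in H1299 and 1.62 ± 0.13 in H460, a difference of -1.41 ± 0.15 (adjusted p = 2.44e-08). For MDM2 the changes were 0.29 ± 0.06 in H1299 and 1.12 ± 0.11 in H460, a difference of -0.82 ± 0.12 (adjusted p = 3.19e-05). GDF15, a secreted stress cytokine, had -0.01 ± 0.18 in H1299 and 1.74 ± 0.16 in H460. TP53INP1, a p53-induced nuclear protein, had 0.16 ± 0.08 in H1299 and 1.76 ± 0.12 in H460, and TIGAR, which lowers glycolysis, -0.17 ± 0.08 in H1299 and 1.31 ± 0.26 in H460. CDKN1A, GDF15, TP53INP1 and TIGAR were named for the size of their difference between the lines, so their values are a description of that choice.

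Repair and centrosome genes were among the differences above 0. Of the double-strand break repair genes 14 of 37 were called above and 1 below, of the Fanconi list 7 of 18 and 0, and of the centrosome list 16 of 46 and 0. RIF1 changed by 0.89 ± 0.08 in H1299 and -0.23 ± 0.13 in H460, a difference of 1.12 ± 0.16 (adjusted p = 2.19e-05). For ATM the changes were 0.85 ± 0.11 in H1299 and -0.05 ± 0.15 in H460, a difference of 0.90 ± 0.19 (adjusted p = 0.00269). TGFB2, also named for its difference between the lines, moved in opposite directions, at 0.64 ± 0.11 in H1299 and -0.82 ± 0.13 in H460, a difference of 1.46 ± 0.17 (adjusted p = 4.03e-07). CCNE2 had 0.47 ± 0.11 in H1299 and -0.80 ± 0.15 in H460, a difference of 1.28 ± 0.19 (adjusted p = 2.84e-05).

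Among small RNA genes, 9 of the 25 in the same small nuclear RNA list were called below 0 and 0 above, and in H460 0 of 25 were called in either direction. RNU4ATAC changed by -1.12 ± 0.20 in H1299 and 0.05 ± 0.23 in H460 (difference adjusted p = 0.0203). The cytosolic ribosomal protein list had 11 of 64 below 0, the mitochondrial one 13 of 73, complex I 8 of 33 and the histone list 8 of 56, with 0 above 0 in each. PSMA7 changed by -0.50 ± 0.09 in H1299 and 0.30 ± 0.10 in H460, a difference of -0.81 ± 0.14 (adjusted p = 0.000204). For PPP1R15A, CITED2, ADM and CLK1 the difference did not pass the threshold, which does not show that the lines acted alike. PPP1R15A changed by -0.89 ± 0.08 in H1299 and -0.62 ± 0.12 in H460, a difference of -0.27 ± 0.14 (adjusted p = 0.24). CITED2 changed by -0.80 ± 0.07 in H1299 and -0.53 ± 0.10 in H460 (adjusted p = 0.168), ADM by -0.63 ± 0.08 in H1299 and -0.57 ± 0.12 in H460 (adjusted p = 0.867), and CLK1 by 0.56 ± 0.09 in H1299 and 0.68 ± 0.12 in H460 (adjusted p = 0.705).

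**Figure D5:**
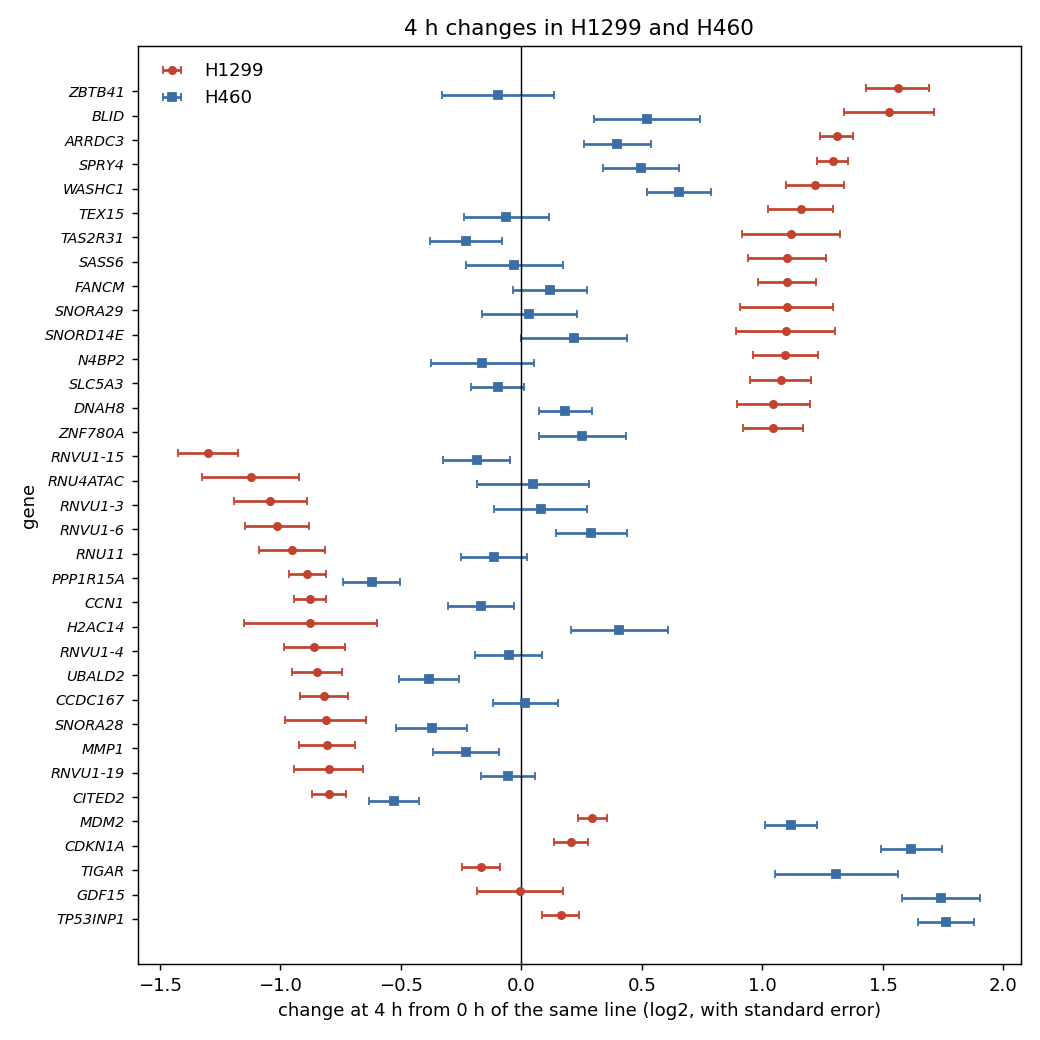
Change at 4 h from 0 h of the same line (x axis, log2, with standard errors) for 35 genes (rows): the 15 top rises in H1299, the 15 top falls and 5 p53 targets, with H1299 as red circles and H460 as blue squares. In the first 15 rows each red circle lies to the right of the blue square of its gene, and in the bottom 5 rows the blue squares lie at 1.12 or above.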

How the data were processed

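The deposited table holds log2 intensities, summarised and normalized by the authors with a method not given in the sources used here. Per the labels, biotin-labelled target was made from 100 ng of total RNA. The table had 32321 rows, of which 19158 had 1 gene symbol, 1388 several and 11775 none in the probe table, and the row with the highest mean was kept for each gene, which left out 754 rows and gave 18404 genes. Of these, 18376 matched RefSeq by gene ID.

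Each comparison was a contrast in limma 3.58.1 (R 4.3.3, lmFit and eBayes with trend, two-sided) with 1 mean per time point over the 21 H1299 arrays, or over all 42 arrays for the difference between lines, without a filter on dim genes. P-values were adjusted over all 18404 genes (Benjamini-Hochberg). Identical arrays numbered 0. Precision is limited by the number of arrays. The steps were tested on simulated data of 18404 genes and 21 arrays. There 70 of 100 changes of 0.5 and 98 of 100 changes of 1 were recovered, and 13 of 181 calls were false.

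The genes named are the 15 largest rises and 15 largest falls that were called and had 4 h arrays apart from those at 0 h, CDKN1A, MDM2, up to 5 members of each list by smallest p, and 5 genes in each direction of every other comparison. The comparison and the 43 lists were chosen with earlier results of these data known. Other settings were other normalizations, filters, array sets, variance models, a block for the replicate number and each array left out. Some genes are not analysed here.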

Additional observations from a re-analysis of the deposited data

Results flagged for a closer look

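The array of 0 h replicate 2 had an interquartile range of 3.24, far from the other arrays at 0 h. Its log2 level also stood apart from the other 5 at 0 h in several genes named above, by Dixon's test for an extreme value, which chance passes in about 1 group in 20. The level on that array was 6.13 for SLC5A3, 6.51 for ZNF780A, 7.64 for RNVU1-15, 9.99 for CCN1, 4.55 for RNVU1-4, 8.34 for PLK2, 9.35 for TRIAP1 and 7.99 for ASCC3. For further genes it was 8.29 for KIF11, 8.21 for POLE, 9.92 for DNAJB1, 6.21 for DTX3L, 6.46 for TGFB2, 6.18 for CLOCK, 7.72 for POLR1B and 8.34 for SEL1L. Other arrays at 0 h stood apart in fewer genes: replicate 1 in BLID (5.36), replicate 1 in RPS14 (11.85), replicate 1 in MRPL36 (9.81), replicate 6 in MRPL21 (7.66) and replicate 1 in RNY1 (5.75).

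The change at 4 h differed between H1299 and H460 in 14 of the 15 named rises and 11 of the 15 named falls by the test of the difference itself, though the choice of these genes used the same H1299 arrays. The H1299 change minus the H460 change was 1.66 for ZBTB41, 1.004 for BLID, 0.91 for ARRDC3, 0.79 for SPRY4, 0.56 for WASHC1, 1.22 for TEX15 and 1.35 for TAS2R31. It was 1.13 for SASS6, 0.98 for FANCM, 1.07 for SNORA29, 1.26 for N4BP2, 1.17 for SLC5A3, 0.86 for DNAH8 and 0.79 for ZNF780A. Among the falls it was -1.12 for RNVU1-15, -1.17 for RNU4ATAC, -1.12 for RNVU1-3, -1.30 for RNVU1-6, -0.84 for RNU11, -0.71 for CCN1, -1.28 for H2AC14, -0.81 for RNVU1-4, -0.84 for CCDC167, -0.58 for MMP1 and -0.74 for RNVU1-19.

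Named for their difference between the lines were RNY1 at 1.71, ZNF493 at 1.46 and TGFB2 at 1.46 above 0, and CDKN1A at -1.41, MDM2 at -0.82, RFPL4A at -2.06, GDF15 at -1.75, TP53INP1 at -1.60 and TIGAR at -1.47 below 0. RNY1 is the Y1 RNA of the Ro particle and RFPL4A a ret finger protein-like gene. The calls of RNY1, RFPL4A and ZNF493 at 4 h against 0 h in H1299 were lost when single arrays were left out, with adjusted p up to 0.166, 0.218 and 0.0697.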

How the results depend on the processing

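The 2919 genes called at 4 h against 0 h were 1849 to 3245 with 1 array left out, 1730 with all 42 arrays in the fit and 4256 with array weights. The split moved too: 63.2% of calls were higher, against 74.4% with the replicate block, 73.3% with 0 h replicates 1 to 3 only, 72.4% with all 42 arrays, 55.1% without 0 h replicate 2, 54.3% after quantile normalization, 53.5% with array width as a covariate and 53.4% with array weights. The 1463 calls against 2 h were 617 to 1172 with 1 array left out, 3213 with array weights, 1830 with array width as a covariate and 480 with all 42 arrays. The 52 calls at 8 h against 4 h were 5 to 8 with 1 array left out, 20 without the trend, 434 with array weights, 554 with only the arrays compared, 10 with all 42 arrays, 29 with the replicate block and 91 with array width as a covariate. The 1572 calls for the difference between lines were 931 to 1846 with 1 array left out, 3121 with array weights, 2341 with array width as a covariate, 928 with only the arrays compared and 604 with 0 h replicates 4 to 6 only. The cause was not tested. All 30 named rises and falls were called in each setting, except H2AC14 under quantile normalization, robust eBayes, 0 h replicates 1 to 3, the block and 5 single arrays left out, and genes that the filter on dim genes removed. The block used replicate numbers that did not pair the samples (correlations of same-numbered deviations at 0 and 4 h of 0.16, 0.03 and -0.08), and it gave 2481 calls at 4 h against 0 h, 1255 against 2 h and 1323 for the difference between lines. With the block the falls within lists moved too. They went from 7 to 2 for G1/S and replication, from 6 to 1 for autophagy and lysosome and from 19 to 26 for small nucleolar RNAs. No detection calls came with the values, so dim genes rest on signal of unknown distance from background.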

Other observations

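Further short RNAs of single genes, chosen after their values were seen, went different ways. TERC, the template RNA of telomerase, averaged 7.37 at 4 h and 7.87 at 0 h, a change of -0.50 ± 0.11 (limma adjusted p = 0.00228), and its arrays at 4 h lay below those at 0 h. RPPH1, the RNA of RNase P and a member of the small nuclear RNA list, averaged 10.57 at 4 h and 10.97 at 0 h, a change of -0.40 ± 0.11 (adjusted p = 0.00945), with overlap between the groups. The RNA of RNase MRP, at -0.13, and 3 vault RNAs were not called. RNY1, a Y RNA, was called higher with a change of 1.06 ± 0.35 (adjusted p = 0.0381), with overlap, and lost its call when single arrays were left out (adjusted p up to 0.166). By gene type, 12 of 20 small nuclear RNA genes were called lower and 0 higher. Of 626 long noncoding RNA genes 21 were higher and 12 lower, and of 391 transcribed pseudogenes 26 were higher and 8 lower, both below the 10.0% and 5.83% of all genes.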
